A study of Helianthus annuus with 8 samples.

Results

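Of the 40169 sunflower (Helianthus annuus) probes spotted once on a custom Agilent array, 150 were taken as transcripts that rose out of the background in leaves under water deficit. A probe qualified when the scanner software did not flag it as well above background on either control array of 45 days and did flag it so on both water deficit arrays. This flag is set when a spot clears its local background by a fixed multiple of the background noise. The rule was met by 687 probes, and these were ranked by margin, the lower water deficit value minus the higher 45-day control value in the authors' deposited log2 table. The 150 largest margins were kept. The members were thus chosen by their water deficit and 45-day control values, which are described here without a test.

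Leaves short of water close their stomata, accumulate abscisic acid and, when the shortage lasts, draw down chlorophyll and enter senescence earlier. Part of this response consists of transcripts that well-watered leaves barely express and that appear once the plant senses drying soil. Removing the flower head acts on the same leaf by another route, since it takes away the reproductive sink to which a leaf exports its sugars.

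RNA of field-grown leaves of the hybrid VDH 481 was labelled with Cy3 and hybridized to 8 arrays. Leaves labelled 45 days came from irrigated, untreated controls (2 arrays) and from plants under a mild water deficit (2 arrays), where a plastic cover kept rain off the soil and lowered its volumetric humidity by about 40%. Leaves labelled 50 days came from untreated controls (3 arrays) and from plants whose flower had been cut off 4 days before flowering (head excision, 1 array). All 45-day arrays shared one slide and all 50-day arrays the other, so that age and slide cannot be told apart. The study's text gives a slightly older age for the younger leaf than the labels do. One hybrid and one season were sampled, and each experimental unit joined several plants of a plot. By the study's methods the field was laid out in randomized blocks with a plot of plants as the replicate, but the labels do not tie an array to a block or plot. P-values measure only the spread between these samples, and for signals near the background this spread can be understated. In such whole-leaf RNA, fewer cells of a type and less RNA per cell cannot be told apart.

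The files pair the members with probe numbers alone. All 150 carried their own probe number as systematic name. A search for the probe names in the RefSeq genes of sunflower matched 0 of 150. These names are custom to the array, so the search could not tell whether a member is a known gene. Members are called by that number, so that probe 1702 stands for CUST_1702_PI423492394, and no gene name, function or sequence is given for any of them. For the same reason the labelled tissue could not be checked against leaf marker genes, and the count of members in any pathway was not taken.

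The members were dim on the 45-day controls and of low to moderate brightness under water deficit. The processed signal, the background-subtracted brightness in scanner units, had a median over members of 2.45 and 2.64 units on control replicates 1 and 2. Under water deficit the median was 32.1 and 51.3 units on replicates 1 and 2. The lowest processed signal of any once-spotted probe was between 1.68 and 1.88 units, depending on the array. Readings close to this are the floor of the scale and stand for no measured signal. On the normalized log2 scale the median member stood at 1.28 in the 45-day controls and at 5.04 under water deficit (means over the 2 arrays of each group). The difference between these means ranged from 2.18 to 8.93 log2 units over the members, with a median of 3.60, where the median over all once-spotted probes was -0.021.

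Even under water deficit the members were not abundant transcripts. Among the 28595 probes well above background on both water deficit arrays, the median mean level was 8.65 log2 units, and 129 of the 150 members lay below the lower quartile of 6.46. Only 2 members exceeded the median. The brightest, probe 1702, reached 9.23 log2 units, the percentile 57.3 of those probes.

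By the strict flag, the rule itself fixed that members were detected at 45 days only under water deficit. A looser flag of the same software asks only that a spot differs significantly from its background. By that flag, 76 and 84 members were positive on 45-day control replicates 1 and 2, and all 150 were positive on both water deficit arrays. No signal by either flag on either control was found for 43 members. Another 54 were positive on 1 control and 53 on both. These shares were 28.7% on neither control and 35.3% on both, against 56.7% and 22.6% of the 11325 probes not well above background on both 45-day controls. The members thus showed control signal by this flag more often than dim probes in general. Of the 537 probes that met the rule outside the limit, 88.8% were positive on both controls.

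The flag rule was met by 1.71% of the 40169 once-spotted probes. The opposite pattern, well above background on both 45-day controls and on neither water deficit array, was met by 74 probes, or 0.184%. Overall brightness moved in the same direction. The median processed signal of all non-control spots was 108 and 89.1 units on the 45-day controls against 144 and 145 units under water deficit, and 70.9% and 69.8% of spots were well above background on the controls against 73.4% and 72.5%. The part of this shift in the excess of 687 over 74 was not tested.

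The limit of 150 did not fall in a gap. The last members inside, probes 12887, 39129 and 17621, had margins of 1.80, 1.80 and 1.79 log2 units, and the first outside, probes 22180, 37264 and 32128, had margins of 1.79, 1.77 and 1.77. Over all 687 probes the median margin was 0.67 and 113 were below 0, whereas the members had a median of 2.58 and a largest margin of 6.99. Margins over 4 were found for 13 members.

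Probe 1702 had the largest margin. Its processed signal was 2.02 and 2.08 units on the 45-day controls and 287 and 1651 units on water deficit replicates 1 and 2. It stayed at 2.0, 2.09 and 2.08 units on the 50-day controls and at 2.09 units after head excision. The arrays without water deficit thus lay between 2.0 and 2.09 units, near the floor, and none was positive by the looser flag. These readings mean no signal and not a measured level. The water deficit arrays differed from each other by 2.56 log2 units. Probe 1814 followed the same course and was likewise not positive by the looser flag on any array without water deficit. Its signal was 2.07 and 2.08 units on the 45-day controls, 218 and 835 units under water deficit, 1.99, 2.07 and 2.07 units on the 50-day controls and 2.05 units after head excision. As with probe 1702, replicate 2 was the brighter of the water deficit arrays. Probe 36466 was at 2.69 and 1.94 units on the 45-day controls and at 280.3 and 843 units under water deficit. On the 50-day controls it read 1.91, 1.93 and 1.97 units, and 2.07 units after head excision, none of them positive by the looser flag. These 3 members were also the brightest of all under water deficit.

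A control signal that was not well above background sets only a lower bound on the rise. For the bound, a control value was raised, where it was lower, to the dimmest level that still counted as well above background on that array (3.36 and 3.61 log2 units on replicates 1 and 2), and the mean of these was set against the water deficit mean. In the water deficit mean, probe 1702 was at least 53.6-fold higher than in 45-day controls, probe 36466 at least 37.7-fold and probe 1814 at least 33.2-fold. These bounds do not hold for each array. Replicate 1 stood at 7.96, 7.92 and 7.57 log2 units, below the means of 9.23, 8.72 and 8.54. Some probes without the flag reached 3.78 and 4.02 log2 units on the 2 controls, so the raised level is no strict ceiling. The bound reached 10-fold for 15 members, 4-fold for 56 and 2-fold for 101. For 7 members it was below 1, and no fold is given for these. The median bound was 2.93-fold.

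Of the other members with the 10 largest margins, 6 were likewise dim by the strict flag on the 4 arrays of 50 days. Probe 9615 had nearly equal signals on the water deficit arrays, 266 and 268 units, against 3.70 and 6.62 units on the 45-day controls. Its 50-day controls read 7.27, 2.29 and 5.0 units and head excision 5.12 units. Probe 36187 read 159 and 292 units under water deficit. On the 50-day arrays it read between 1.88 and 1.96 units, not positive by the looser flag on any of them. Its 45-day controls were unequal, at 1.91 and 4.87 units. Probes 27680, 16305 and 2049 were dimmer, with between 46.1 and 55.9 units on water deficit replicate 1 and between 122 and 141 units on replicate 2. Probe 36885 read 194 and 448 units under water deficit and 7.20 and 2.50 units on the 45-day controls. Probe 791, the twelfth by margin, differed from it by at most 0.35 log2 units on any array, a likeness that was noticed after the values were seen. Whether both probes report one transcript was not tested.

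Probe 7350 was the exception among the 10. Its signal was 3.09 and 1.99 units on the 45-day controls and 127 and 179.7 units under water deficit. On the 50-day controls it read 26.5, 2.67 and 5.57 units, and 28.7 units after head excision. It was well above background on 50-day control replicate 1 and after head excision, at levels below both water deficit arrays.

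The water deficit replicates did not give the members equal values. Replicate 2 was above replicate 1 for 125 members (83.3%), by a median of 0.61 log2 units. Over all probes well above background on both arrays the share was 50.1% and the median difference 0.00092 log2 units. Quantile normalization holds such a difference over most probes near 0. These probes were also brighter, with a median level of 8.65 log2 units against 5.04 for the members, so the comparison is not matched for level. The 537 probes that met the flags outside the limit lay between, with 67.0% and 0.20 log2 units. The gap exceeded 1 log2 unit in either direction for 42 members and for 1017 of the 28595 probes. The 45-day control replicates, near the background, were that far apart for 49 members, for 144 of the 537 probes and for 2577 of the 28595. Replicate 2 was the higher there for 66.7% of members, 62.9% of the 537 and 49.9% of the 28595. Over the members, the SD of the 2 water deficit values had a median of 0.47 and reached 1.81 log2 units for probe 1702. The members thus kept apart from the controls on both arrays, as the rule fixes, but the height of that rise differed between the 2 water deficit samples.

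Among the 10 brightest members under water deficit, probes 28874 and 26625 were among those with a wide gap. Probe 28874 read 114 and 539 units on replicates 1 and 2, and probe 26625 read 105 and 336 units. Probe 7454 read 168 and 405 units, against 4.17 and 7.69 units on the 45-day controls. Probe 9615, described above, had nearly the same value on both arrays.

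The 4 arrays of 50 days took no part in the choice. On none of them were 103 members (68.7%) well above background, where this held for 85.3% of the 11325 probes that were likewise dim on both 45-day controls. On at least 1 of the 3 controls 32 members were detected (21.3%), and after head excision 33 (22.0%). Among the same 11325 dim probes, the shares for a control and for head excision were 12.6% and 7.49%, and among the 537 probes outside the limit 60.0% and 44.7%. By array, 16.0%, 8.00% and 6.67% of members were detected on control replicates 1, 2 and 3, where 8.19%, 5.98% and 7.09% of the dim probes were. The members exceeded the dim probes most after head excision and on control replicate 1, and not on replicate 3.

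Of the 32 members detected on the older controls, 22 were detected on exactly 1 of them (14.7% of the members, against 6.77% of the dim probes, for which it was 767 of 1424 detected), 14 of them on replicate 1, 6 on replicate 2 and 2 on replicate 3. Another 6 were detected on 2 controls and 4 on all 3, or 2.67%, where 2.88% of the probes dim on both 45-day controls were. Among the 537 probes outside the limit, 21.4% were detected on exactly 1 control and 19.4% on all 3. Without replicate 1, 12.0% of the members were detected on a 50-day control.

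The 4 members detected on all 50-day controls were thus not detected under water deficit alone. Their share was close to that of the dim probes and below the 19.4% of the 537 probes outside the limit. Probe 22431 read 7.79 and 7.62 units on the 45-day controls, 47.5 and 47.6 units under water deficit, 58.2, 79.7 and 43.6 units on the 50-day controls and 50.5 units after head excision. All 4 arrays of 50 days were thus near or above the water deficit level. Probe 12067 read 9.27 and 9.51 units on the 45-day controls, 56.7 and 72.3 units under water deficit, 52.3, 27.9 and 38.6 units on the 50-day controls and 65.8 units after head excision. Probe 17621, the last member by margin, read 44.5 units on water deficit replicate 1 and more on replicate 2, 19.5, 28.0 and 23.2 units on the 50-day controls and 17.1 units after head excision. Its 50-day values lay between its 45-day controls, 8.92 and 7.32 units, and the water deficit arrays. Probe 1356 read 30.9 and 29.6 units under water deficit and 11.6, 24.0 and 16.1 units on the 50-day controls. After head excision it read 5.97 units and was not well above background, and its 45-day controls had 3.37 and 2.38 units.

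Probes 37842 and 38099 were detected on 2 of the 50-day controls and after head excision. Probe 37842 read 24.1, 8.59 and 17.0 units on the 50-day controls, 77.7 units after head excision and 22.6 and 54.5 units under water deficit. Head excision was its brightest array. Probe 38099 read 60.0, 7.99 and 26.9 units on the 50-day controls and 27.7 units after head excision, against 22.6 and 20.7 units under water deficit.

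For most members the 50-day arrays stayed below water deficit. On the normalized scale, 137 members (91.3%) were lower on all 4 of them than on both water deficit arrays. The rule ranked members by how far the lower water deficit value exceeded the 45-day controls, which favours such a count. The same share over other probes was not taken. The lower water deficit value was reached by 6, 4 and 2 members on 50-day control replicates 1, 2 and 3 and by 10 members after head excision. The mean over controls was close at the ages compared, with a median over members of 1.28 log2 units at 45 days and 0.92 at 50 days. It was higher at 50 days for 70 of the 150 members. All 3 controls of 50 days were above both of 45 days for 23 members and below both for 33. The 45-day values were held low by the rule, and the same counts were not taken over all probes. These 2 counts are therefore no result about the members.

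Head excision against the 50-day controls was tested with limma over all 40243 non-control probes, with the single array assumed to vary like the controls. No member passed an adjusted p of 0.05 after Benjamini-Hochberg adjustment, and neither did any other probe. The smallest adjusted p of a member was 0.125. In a fit of all 8 arrays 2 members passed, where 0.286% of all probes did, and with trended eBayes 11 members, where 0.644% did. The fit of all 8 arrays took part of its spread from the 45-day arrays that chose the members. Its count is therefore not independent of that choice. At an unadjusted p below 0.01, 19 members (12.7%) were higher after head excision, where 1.58% of all probes were, and 1 member (0.667%) was lower, where 0.944% of all probes were. At an unadjusted p below 0.05 in either direction there were 36 members (24.0%), against 8.69% of all probes and 13.4% of the 537 outside the limit. Among the dim probes not well above background on both 45-day controls, 3.64% were higher at an unadjusted p below 0.01, and among the 537 outside the limit 2.05%. Over all non-control spots, the median signal was 131 units after head excision and 122 to 137 on its controls. Well above background were 72.4% of spots against 71.7% to 72.7%. The median spot brightness of the members, before background subtraction, was 47.5 units after head excision and 43.0 to 43.2 on the controls. The part of array brightness in the excess was not tested.

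Most of these 19 values were close to the background. Of the 19, 14 were dim by the strict flag on all 4 arrays of 50 days, so that no fold is given for them, and 5 were well above background after head excision and on no control. Their differences ranged from 0.58 to 3.05 log2 units. Probe 266, one of the 14, read 1.87, 1.91 and 1.93 units on the 50-day controls and 4.52 units after head excision. Its 45-day values were 1.90 and 1.90 units in the controls and 23.5 and 27.6 units under water deficit. On this scale a few units near the background amount to a log2 difference of 1.63 (SE 0.094, limma unadjusted p = 0.000394, adjusted p = 0.143). None of its 50-day controls was positive by the looser flag, and their SD was 0.021 log2 units, where the median SD over members was 0.41. Readings that lie together at the floor do not show the spread between leaves, so p-values of such members are too small. The share of members called is therefore no measure of a response to head excision.

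The 5 members measured after head excision were probes 23752, 15035, 26625, 13493 and 29069. Probe 23752 read 1.97, 2.07 and 2.03 units on the controls and 11.6 units after head excision, at least 1.22-fold higher (adjusted p = 0.125, limma). Under water deficit it had 40.6 and 49.3 units. Probe 15035 read 2.14, 2.23 and 2.24 units on the controls and 11.2 units after head excision, at least 1.18-fold higher (adjusted p = 0.125, limma). The bounds are small because both head excision signals lay just above the lowest that counts as well above background. Probe 26625 read 2.12, 2.25 and 2.87 units and 12.6 units, at least 1.33-fold higher (adjusted p = 0.192, limma). Probe 13493 read 4.58, 4.51 and 5.95 units and 16.9 units, at least 1.83-fold higher (adjusted p = 0.335, limma). Probe 29069 read 7.12, 7.79 and 8.17 units and 18.5 units, at least 2.0-fold higher (adjusted p = 0.359, limma). In each case the single head excision array lay above all 3 controls and below both water deficit arrays.

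Head excision lay above all 3 controls for 67 members (44.7%), where this held for 25.7% of the once-spotted probes, and below all 3 for 32 members (21.3%), where it held for 29.4%. The median difference over members was 0.26 log2 units, against -0.0090 over the once-spotted probes. It was 0.0028 with a normexp offset of 50, 0.0069 with spot and background medians and 0.086 without control replicate 3. Against each control in turn it was 0.067, 0.16 and 0.30 log2 units for replicates 1, 2 and 3, so that its size depended on the control.

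A wider set of 15 members (10.0%) was well above background after head excision and on no 50-day control. This held for 6.33% of the 537 probes that met the rule outside the limit, the set most like the members. It held for 2.13% of the probes dim on both 45-day controls and for 0.874% of all once-spotted probes. Head excision signals of these 15 members ran from 11.0 to 52.0 units, and all 15 were lower there than on both water deficit arrays. Probe 6538 stood out among them, with 3.07, 7.59 and 2.0 units on the controls and 52.0 units after head excision, at least 5.85-fold higher. Its water deficit signals were 65.6 and 216 units, and its difference of 4.26 log2 units had an adjusted p of 0.557 by limma, since the controls spread by an SD of 1.33 log2 units. Probe 39417 was at least 2.46-fold higher, with 22.6 units after head excision and controls of 2.18, 9.74 and 2.31 units. Probe 34823 was at least 2.11-fold higher, with 19.5 units against 7.86, 9.29 and 8.44 units.

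Some of the largest differences belonged to members that a control also detected. Probe 2507 differed by 4.31 log2 units (adjusted p = 0.636, limma), with control replicates 2 and 3 not well above background, and by 1.45 with an offset of 50 and 0.31 with spot and background medians. It read 113 units after head excision, above its 50.1 and 80.6 units under water deficit, while the 50-day controls read 20.7, 6.13 and 2.36 units. Probe 34779 read 29.4 units after head excision against 11.6, 2.33 and 3.92 units on the controls, a difference of 2.97 log2 units, and 73.7 and 259 units under water deficit. Probe 31768, detected after head excision alone, read 13.3 units against 1.93, 1.99 and 4.18 units.

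In the other direction, probe 37364 read 6.32, 10.6 and 5.35 units on the controls and 1.96 units after head excision. Only control replicate 2 was well above background, so that its difference of -2.40 log2 units (adjusted p = 0.531, limma) is no measured fold, and with an offset of 50 it was -0.15. Probe 1356 followed with -1.68, and probes 20239, 2206, 7480, 2107, 5574 and 2483 lay between -1.45 and -0.88. Probes 37364, 20239, 2206, 2107 and 5574 were well above background on 1 of the 50-day controls, probe 1356 on all 3, and probes 7480 and 2483 on none. None of these 8 was after head excision. The 1 member lower at an unadjusted p below 0.01, probe 20578, read 5.59, 5.21 and 5.86 units on the controls and 3.65 units after head excision, all of them not well above background.

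The water deficit rise and the head excision difference were also set side by side. Pearson's r was -0.037 and Spearman's rho -0.049 over the 150 members, whose range of the first difference was set by the rule. Over all 40169 once-spotted probes they were 0.21 and 0.14. These are correlations across probes, which are not independent replicates, and each difference comes from arrays of one slide.

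The members were spread over the array. By row they numbered between 35 and 43 in each of 4 bands of equal probe number, and by column between 33 and 40. None of their spots was marked as non-uniform, as a population outlier or as saturated on any of the 8 arrays. The median local background at the members was between 41.0 and 44.0 units on every array.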

How the data were processed

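The authors hybridized Cy3-labelled RNA of 8 leaf samples to 1 array each, and the deposited scanner files hold a spot intensity that Agilent Feature Extraction (version 10.7.1.1 in the file headers, 9.1 in the submitters' processing notes) had background subtracted, with no normalization between arrays. The other deposited columns used, per the file headers, are flags of 0 or 1. A further deposited file holds log2 values made by the authors, which followed the recomputed values of its own arrays (lowest Pearson's r 0.9998, at most 0.9908 with another array).

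After the study's methods, processed signals went through normexp (offset 1) and a log2 transform, and quantiles were equalized across the 8 arrays. Control spots were left out, repeated spots averaged, and limma 3.58.1 (R 4.3.3; lmFit, eBayes) was fitted to the 50-day arrays, with Benjamini-Hochberg adjustment over 40243 probes. Arrays of 45 days stayed out of the fit because they had chosen the members. The fit was tested on simulated data of this design with 200 changed probes. At a change of 2 log2 units 0 of these passed the adjustment, and at 4 log2 units 70 did. A lack of adjusted calls here therefore does not show a lack of change.

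Levels and counts were computed with pandas 2.3.3 and scipy 1.17.1. The members and lists were chosen with earlier results of these data known. Named members are the 10 with the largest margin, the 10 brightest under water deficit, the 8 with the largest and the 8 with the smallest head excision difference, and the 3 probes on each side of the limit. Others were named after their values were seen. Lists by gene description were not used, since no file used here pairs a probe with a description. Alternatives covered the background correction, normalization, filters, eBayes, the flag, the list and each array left out. The number of arrays limits the precision.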

Additional observations from a re-analysis of the deposited data

How the results depend on the processing

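Of members higher in head excision (unadjusted p below 0.01), the count of 19 became 10 with all 8 arrays in one fit (8 of the 19 among them) and 7 with a filter on dim probes, which left 34 members. With spot and background medians and an offset of 50, chosen after seeing the data, there were 3, none of the 19. They numbered 12 to 19 with each 50-day control left out, 12 without replicate 3. The other alternatives gave 13 to 22. The 1 lower member was lost, with 0, with all 8 arrays, with the replicate block, with an offset of 50, with 75th percentile scaling, with the filter, with the medians and with any control left out.

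The adjusted count of 0 rose to 2 with all 8 arrays (probes 266 and 23752), where 0.286% of all probes passed, and to 11 with trended eBayes, where 0.644% did. Fits of all 8 arrays drew on the 45-day arrays that chose the members, so their counts are not independent of that choice. With the replicate block in the fit of all 8 arrays, 13 members were higher, 6 of them among the 19, and 0 passed the adjustment. The labels do not say that equal numbers share a plot. Deviations of replicate 1 from its group mean correlated with r = 0.202 between control and water deficit at 45 days. For replicate 1 the r was 0.159 between the controls of both ages and 0.00867 between water deficit and the 50-day controls. Replicate 2 was not compared across ages.

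The median head excision difference of 0.26 was 0.0028 with an offset of 50, 0.0069 with the medians, 0.14 with 75th percentile scaling and 1.66 under the filter, and 0.086 to 0.27 with each control left out, 0.13 without replicate 2 and 0.086 without replicate 3. The filter fixes that direction, since 33 of the 34 members it left were those well above background after head excision. With an offset of 50 the median rise under water deficit was 0.68 in place of 3.60 log2 units. Direction was reversed for probe 20239 with the medians (0.0089) and for probe 2107 without 50-day control replicate 2 (0.039, and -1.76 without replicate 3).

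By the looser flag, 74.0% of members were positive on a 50-day control and 62.0% after head excision. Of the 100 largest margins, 14.0% were detected on a 50-day control, and without single controls the share was 12.0% to 20.0%. The flag rule was met by 927 to 1120 probes with single 45-day arrays left out, among them 1120 when control replicate 1 was out and 1090 when water deficit replicate 2 was. Lists rebuilt without each 45-day array in turn, an alternative chosen after seeing the data, kept at least 71 of the 150 members, fewest without control replicate 2. Their share detected on a 50-day control ranged from 12.0% (without water deficit replicate 2) over 14.0% (without water deficit replicate 1) to 36.0% (without control replicate 1), and after head excision from 12.7% (without water deficit replicate 2) to 36.7% (without control replicate 2). The cause was not tested in any of these.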
